A study of Mus musculus with 8 samples.

Results

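The 7 genes described here, Olig1, Olig2, Sox10, Cspg4, Pdgfra, Gpr17 and Vcan, are markers of oligodendrocyte precursor cells, and were taken by symbol from a count table of 55414 mouse genes. Oligodendrocyte precursors are the dividing glial cells that give rise to the myelin-forming oligodendrocytes of the central nervous system. In that lineage Olig1, Olig2 and Sox10 are the transcription factors that set identity, Pdgfra is the receptor through which platelet-derived growth factor keeps precursors dividing, and Gpr17 is a receptor of the short stage between precursor and myelinating cell. Cspg4, also called NG2, is a chondroitin sulfate proteoglycan of the precursor surface, and Vcan encodes versican, a secreted proteoglycan of the matrix around them. Outside the lineage, Pdgfra is also known in fibroblasts, Cspg4 in pericytes, Sox10 in Schwann cells and melanocytes, and Vcan in fibroblasts and monocytes.

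The RNA came from a mouse model of supratentorial ependymoma driven by the ZFTA-RELA fusion, which joins a zinc finger protein to a subunit of NF-kB. Bulk RNA-seq was done on 8 libraries in 4 groups of 2: naive brain tissue or brain tumor, after vehicle or after MRX-2843, a small molecule that blocks the kinases MERTK and FLT3. Mice whose tumor was visible by MRI were assigned at random to vehicle or to 50 mg/kg MRX-2843 by oral gavage, daily for 5 days, and were killed 1 h after the last dose. All 8 libraries, naive brain included, carry the fusion as genotype and the drug's name as cell line, so every group shares the same stated genotype. The sources used here give neither the age of the mice, nor the promoter or cell type in which the fusion was expressed, nor whether the naive tissue was taken from tumor-bearing mice. Libraries of one group are described as duplicates, with no statement that they are separate animals, and the p-values then measure only the spread between these libraries, which may be technical.

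Library totals ran from 51150569 to 112938462 counts, and the members had between 896 and 40325 counts in a library, so counting error was small. Levels are CPM, counts scaled to a common library size, over library totals scaled by the trimmed mean of M-values (TMM), and all 7 members were among the 24356 genes that passed the filter on low counts. The 2 libraries labelled MRX-2843 tumor stood apart from the vehicle tumor libraries: over 16560 genes their log2 CPM correlated with vehicle naive brain at r = 0.975 to 0.976, with MRX-2843 naive brain at 0.968 to 0.970, and with vehicle tumor at 0.666 to 0.671. How much tumor tissue those 2 libraries hold was not tested, and they may hold little or none. Mitochondrially encoded genes held 3.26% to 3.37% of the counts in vehicle tumor and 14.7% to 18.5% in the other 6 libraries. Xist, expressed from the inactive X, ran from 526 to 795 CPM after MRX-2843 and from 0.408 to 2.88 CPM after vehicle, and the Y-linked Ddx3y had 0 counts in the former and 2168 to 6717 in the latter. Treatment and the sex of the source cannot be told apart. A number in the column names also takes a single value for all MRX-2843 libraries. Both vehicle tumor libraries and vehicle naive library 1 share another value, and vehicle naive library 2 has its own. What the number stands for is not stated. If it marks an animal, vehicle tumor and the MRX-2843 groups hold no separate animals as replicates. Every comparison below that involves MRX-2843 tumor rests on those 2 libraries, and the comparison of vehicle tumor with vehicle naive brain gave the same 6 higher and 1 lower members when they were left out of the fit.

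Promoter sequences are shown because 6 of the 7 members moved in the same direction between vehicle tumor and naive brain. RefSeq promoter windows (GRCm38.p6, from 250 bases before the start to 50 after) were on hand for 4 members, Olig2, Cspg4, Pdgfra and Vcan. The stretch before the start and before the annotated gene is printed 5′ to 3′ on the gene's strand, with CpG dinucleotides in capitals.
Olig2, chr16:91225300-91225456, plus strand: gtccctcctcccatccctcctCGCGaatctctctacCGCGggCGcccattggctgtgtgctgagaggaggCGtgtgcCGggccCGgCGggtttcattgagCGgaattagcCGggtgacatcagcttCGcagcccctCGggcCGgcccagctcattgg
Cspg4, chr9:56864854-56865032, plus strand: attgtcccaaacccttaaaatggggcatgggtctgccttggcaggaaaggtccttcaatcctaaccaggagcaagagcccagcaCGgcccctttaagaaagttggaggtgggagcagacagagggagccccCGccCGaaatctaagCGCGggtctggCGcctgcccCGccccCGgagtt
Pdgfra, chr5:75152001-75152250, plus strand: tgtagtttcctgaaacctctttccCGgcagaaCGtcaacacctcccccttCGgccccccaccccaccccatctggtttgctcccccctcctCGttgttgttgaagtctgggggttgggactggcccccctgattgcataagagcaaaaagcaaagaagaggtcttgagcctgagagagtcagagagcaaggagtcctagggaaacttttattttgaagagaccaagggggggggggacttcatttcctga
Vcan, chr13:89742513-89742762, minus strand: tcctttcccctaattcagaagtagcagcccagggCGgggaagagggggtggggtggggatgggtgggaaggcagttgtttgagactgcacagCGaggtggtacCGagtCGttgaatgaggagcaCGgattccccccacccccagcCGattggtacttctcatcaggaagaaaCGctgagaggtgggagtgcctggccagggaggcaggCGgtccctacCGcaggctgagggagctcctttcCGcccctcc

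The 4 windows differed in CpG content. The full 300-base window held 25 CpGs at Olig2, 17 at Cspg4, 12 at Vcan and 5 at Pdgfra, against a median of 7 over 32851 RefSeq promoters of the same length. On both strands, the GC box letters GGGCGG were found at 2 places each in Olig2, Cspg4 and Vcan and at none in Pdgfra, and 35.7% of all promoters hold them. The E-box letters CANNTG, the kind of site that OLIG proteins and their partners bind, occurred at 2 places in Pdgfra, 1 in Vcan and none in Olig2 or Cspg4, against 72.3% of promoters with at least 1. Neither the SOX-type letters ACAAAG (18.7% of promoters) nor an NF-kB-type motif, GGG and TTTCC separated by any 2 bases (1.63%), were in any of the 4 windows. A match is a description of letters, and its absence concerns these windows alone.

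In vehicle tumor, 6 of the 7 members were higher than in vehicle naive brain and Gpr17 was lower. A gene was called where edgeR's quasi-likelihood test gave a Benjamini-Hochberg adjusted p under 0.05 over all genes tested. Of all genes tested, 60.1% were called in this comparison, 29.3% higher and 30.8% lower, so a call on its own was common. The members' median log2 fold change was 1.63, against -0.03 over all genes. The rises ran from 2.18-fold for Olig1 to 19.6-fold for Vcan in mean CPM. In these bulk samples more cells of a type and more RNA per cell cannot be told apart.

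**Figure D1:**
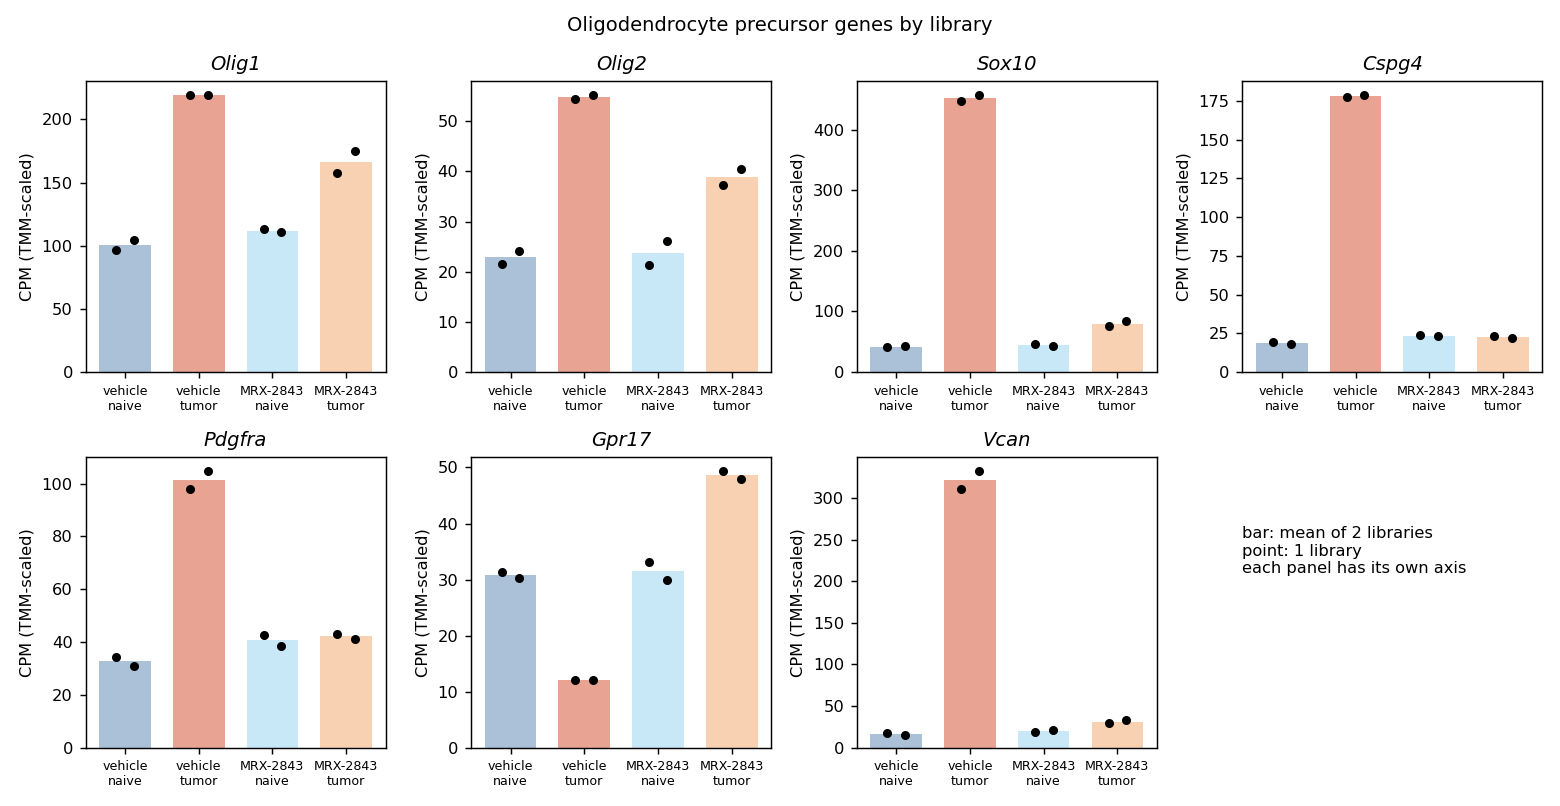
Level of each member in CPM (TMM-scaled, linear axes from 0) in the 2 libraries of each group; points are libraries and the bar is their mean. Vehicle tumor is the highest group for 6 genes and the lowest for Gpr17, and the libraries labelled MRX-2843 tumor are near the naive brain groups for Cspg4 and Pdgfra.

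Among the transcription factors, Sox10, which directs oligodendrocyte differentiation and is kept on through the whole lineage, moved most. Sox10 (chromosome 15, 79154908 to 79165240, minus strand, GRCm38) was at 40.6 and 43.2 CPM (vehicle naive brain), 447 and 457 (vehicle tumor), 46.9 and 42.2 (MRX-2843 naive brain) and 75.4 and 84.2 (MRX-2843 tumor). Vehicle tumor stood far above all other libraries, and the MRX-2843 tumor libraries lay above both naive groups, which overlapped. The mean rose from 41.9 ± 1.83 CPM to 452 ± 7.38 (SD, n = 2) between vehicle naive brain and vehicle tumor, a log2 fold change of 3.43 ± 0.08 (SE) with an adjusted p of 7.97e-15 in edgeR.

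Olig2, the transcription factor required to specify the lineage, rose less. It (chromosome 16, 91225457 to 91228677, plus strand) was at 21.5 and 24.2 CPM (vehicle naive brain), 54.5 and 55.3 (vehicle tumor), 21.3 and 26.2 (MRX-2843 naive brain) and 37.4 and 40.5 (MRX-2843 tumor). The naive groups overlapped and neither tumor group overlapped them or the other. Vehicle tumor exceeded vehicle naive brain by 1.26 ± 0.11 on the log2 scale (adjusted p = 6.79e-08, edgeR).

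Olig1, the paralogue of Olig2 that acts in precursor maturation, lies 41095 bases from it on the same strand (91269772 to 91271933). Olig1 levels were 96.7 and 105 CPM (vehicle naive brain), 219 (both vehicle tumor libraries), 113 and 111 (MRX-2843 naive brain) and 158 and 175 (MRX-2843 tumor). The groups did not overlap. The log2 fold change of vehicle tumor over vehicle naive brain was 1.12 ± 0.06 (adjusted p = 7.06e-10, edgeR), so the OLIG pair rose by similar factors, while Sox10 rose 10.8-fold. Across the 8 libraries, log2 CPM of Olig1 and Olig2 correlated at Pearson's r = 0.983, a description over libraries that fall into groups.

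The genes around these factors were mixed in both places. Beyond the OLIG pair, Ifnar2, an interferon receptor subunit 100850 bases from Olig1, had a log2 fold change of 2.83 (adjusted p = 4.29e-10, edgeR) in vehicle tumor against vehicle naive brain, and 4932438H23Rik, at under 1 CPM, one of 2.36 (0.04695), while Paxbp1 on the other side of Olig2 fell by 0.50 (0.000247). Gm21970, the other neighbour of Olig1, did not pass the filter. Around Sox10, Polr2f, 3134 bases away, differed by 0.22 (adjusted p = 0.186) and 1700088E04Rik by -0.16 (0.800), Pick1 fell by 0.87 (1.11e-05) and Gm49486 was higher by 1.67 (0.0343).

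Of the receptors, Pdgfra and Gpr17 went in opposite directions. Pdgfra (chromosome 5, 75152292 to 75198215, plus strand) was at 34.4 and 31.0 CPM (vehicle naive brain), 98.1 and 105 (vehicle tumor), 42.8 and 38.4 (MRX-2843 naive brain) and 43.0 and 41.3 (MRX-2843 tumor). Vehicle tumor was far above the rest, the MRX-2843 groups overlapped, and vehicle naive brain lay a little below them. The rise in vehicle tumor was 3.11-fold in mean CPM, or 1.63 ± 0.08 on the log2 scale (adjusted p = 1.73e-10, edgeR). The other receptor tyrosine kinase genes of the same cluster were higher as well, with a log2 fold change of 1.67 for Kit, the stem cell factor receptor, and 2.75 for Kdr, a vascular endothelial growth factor receptor. On the other side of Pdgfra, Chic2 was higher by 1.14 ± 0.12 (adjusted p = 7.89e-07, edgeR). Gsx2, at under 1 CPM in the vehicle libraries, was not called (-2.56 ± 1.13, 0.0648).

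Gpr17 (chromosome 18, 31942997 to 31949636, minus strand) was at 31.3 and 30.3 CPM (vehicle naive brain), 12.01 and 12.06 (vehicle tumor), 33.1 and 29.99 (MRX-2843 naive brain) and 49.4 and 48.0 (MRX-2843 tumor). Vehicle tumor was the lowest group and MRX-2843 tumor the highest, with the naive groups overlapping between them. Gpr17 fell by 1.35 ± 0.09 on the log2 scale from vehicle naive brain to vehicle tumor (adjusted p = 6.69e-09, edgeR). Gpr17 shares 188 exon bases with Lims2 on the opposite strand, and the strand setting of the counting is not stated, so reads there cannot be assigned with certainty. Lims2 was at 18.7 to 19.9 CPM in naive brain of vehicle mice and 24.8 to 26.6 in vehicle tumor, a move opposite to that of Gpr17.

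Of the proteoglycans, Vcan rose by the larger factor. Vcan (chromosome 13, 89655312 to 89742509, minus strand) was at 17.7 and 15.1 CPM (vehicle naive brain), 311 and 333 (vehicle tumor), 18.4 and 21.3 (MRX-2843 naive brain) and 29.5 and 33.3 (MRX-2843 tumor). Vehicle tumor was more than an order of magnitude above vehicle naive brain, and MRX-2843 tumor lay between vehicle tumor and the naive groups. The log2 fold change of vehicle tumor over vehicle naive brain was 4.29 ± 0.10 (adjusted p = 1.57e-14, edgeR), the largest of the 7. Hapln1, the link protein that binds versican to hyaluronan and sits 43660 bases from Vcan, had a log2 fold change of 1.38.

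Cspg4 (chromosome 9, 56865033 to 56899870, plus strand) was at 19.3 and 17.9 CPM (vehicle naive brain), 178 and 179 (vehicle tumor), 23.96 and 22.96 (MRX-2843 naive brain) and 23.5 and 22.2 (MRX-2843 tumor). Vehicle tumor was clear of the other 6 libraries, which stayed between 17.9 and 23.96 CPM. Its rise in vehicle tumor was 9.59-fold in mean CPM, or 3.26 ± 0.08 on the log2 scale (adjusted p = 1.78e-14, edgeR). The neighbours of Cspg4 were mixed. Lingo1 fell by 4.09 ± 0.08 (3.79e-15), from 267 and 264 CPM to 16.1 and 15.1. Snx33 rose by 1.70 ± 0.13 (1.66e-08) and Imp3 by 0.44 ± 0.14 (0.0135), while Odf3l1, at under 1 CPM, was not called (0.345).

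Corrected for exon length, as RPKM (CPM per kilobase of exon), the order of the members changed between tissues. In vehicle naive brain, mean RPKM was 46.6 for Olig1, 13.7 for Sox10, 9.03 for Olig2, 5.92 for Gpr17, 3.26 for Pdgfra, 1.56 for Cspg4 and 1.13 for Vcan. In vehicle tumor Sox10 came first at 148 RPKM, ahead of Olig1 at 101. Vcan at 21.5 and 23.0 RPKM and Olig2 at 21.5 and 21.8 followed, and these neighbours in the order did not differ beyond their spread. Cspg4 at 14.9, Pdgfra at 10.1 and Gpr17 at 2.32 RPKM completed the order. Gpr17 was thus above Pdgfra, Cspg4 and Vcan in naive brain and last in vehicle tumor. The libraries labelled MRX-2843 tumor had the naive order for the first 5 genes, with Olig1 at 77.0, Sox10 at 26.2, Olig2 at 15.4, Gpr17 at 9.38 and Pdgfra at 4.20 RPKM, then Vcan at 2.17 and Cspg4 at 1.91.

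Against vehicle tumor, the libraries labelled MRX-2843 tumor had 6 members lower and Gpr17 higher. Of all genes tested, 60.4% were called, 29.8% lower and 30.6% higher. This comparison shares the vehicle tumor libraries with the one above, so the 2 sets of values are not independent. The members' median log2 fold change was -1.27, against 0.03 over all genes. Vcan fell by 3.36 ± 0.09 on the log2 scale (adjusted p = 1.6e-13, edgeR), Cspg4 by 2.96 ± 0.08 (5.2e-14) and Sox10 by 2.50 ± 0.07 (1.94e-13). The remaining decreases were smaller: Pdgfra fell by 1.27 ± 0.08 (3.36e-09), Olig2 by 0.50 ± 0.11 (0.000834) and Olig1 by 0.40 ± 0.06 (7.03e-05). Gpr17 was higher by 2.02 ± 0.10 (adjusted p = 6.88e-11, edgeR), from a mean of 12.04 to 48.7 CPM.

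**Figure D2:**
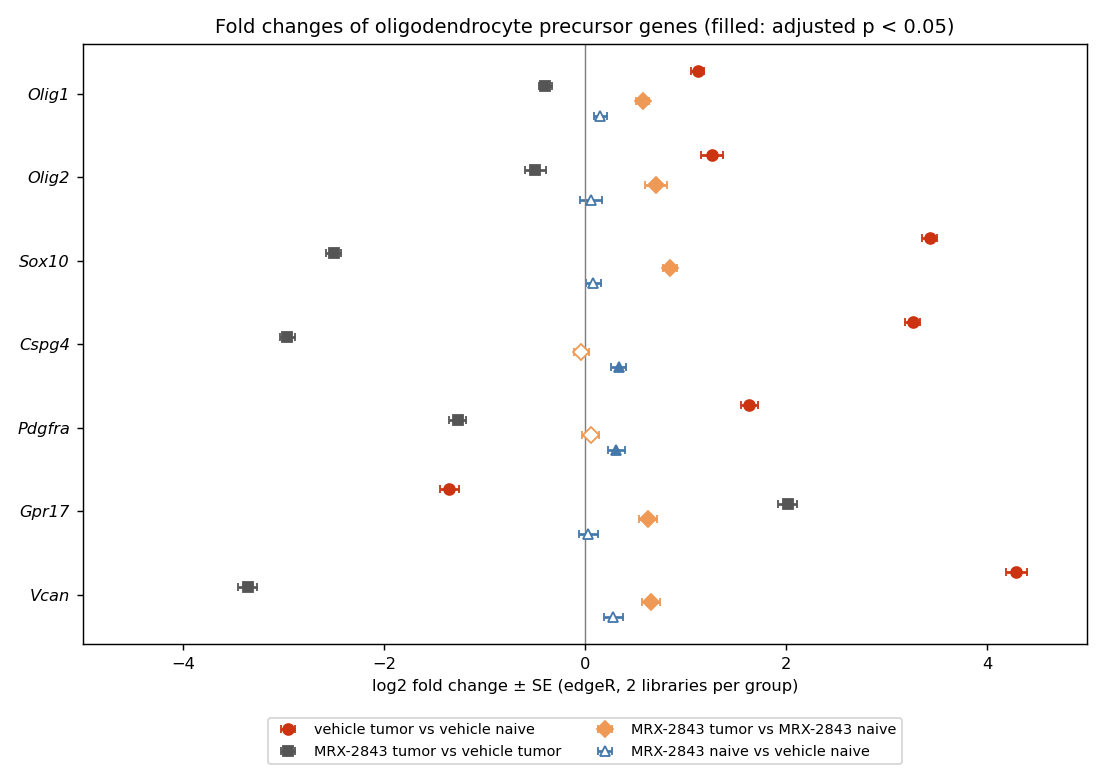
Log2 fold change of each member with its SE (edgeR, 2 libraries per group) in the comparisons between groups, one marker and colour per comparison, filled where the adjusted p is under 0.05 and open otherwise. Vcan, Cspg4 and Sox10 have the longest distances from 0 in both comparisons with vehicle tumor, and Gpr17 has the opposite sign to the others in both.

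Within the MRX-2843 mice, 5 members were higher in the libraries labelled tumor than in naive brain and none was lower. The background was 24.4% of genes called, 12.4% higher and 11.9% lower. The members' median log2 fold change was 0.63, while the median of all genes was at 0. Sox10 was higher by 0.85 ± 0.07 (adjusted p = 7.81e-07, edgeR), Olig2 by 0.71 ± 0.11 (0.000189) and Olig1 by 0.57 ± 0.06 (1.3e-05). Vcan was higher by 0.66 ± 0.09 (0.000108) and Gpr17 by 0.63 ± 0.09 (0.000127). Cspg4 differed by -0.04 ± 0.07 (adjusted p = 0.806) and Pdgfra by 0.06 ± 0.08 (0.723), with overlapping libraries. The difference was under 1 log2 unit for all 5, and Gpr17 was among the higher genes, unlike in vehicle tumor.

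In naive brain, MRX-2843 and vehicle differed little for these genes. Cspg4 was higher with MRX-2843 by 0.33 ± 0.07 on the log2 scale (adjusted p = 0.00449, edgeR) and Pdgfra by 0.31 ± 0.08 (0.0152), and none was lower, where 21.5% of all genes were called, 9.78% higher and 11.7% lower. Both calls depended on single libraries. Pdgfra lost its call without MRX-2843 naive library 1 (0.23, adjusted p = 0.129) or vehicle naive library 2 (0.24, 0.170), and Cspg4 without vehicle naive library 2 (0.28, 0.065). Vcan differed by 0.28 ± 0.10 with an adjusted p of 0.05004, at the threshold. The transcription factors and Gpr17 differed by 0.03 to 0.15, with adjusted p from 0.12 to 0.873. Of the 13 further precursor genes, 7 were higher with MRX-2843 and 2 lower, with a median of 0.50 against 0.02 over all genes. Among the higher were C1ql1 by 0.74 ± 0.11 (0.000156), Sox6 by 0.62 ± 0.14 (0.00446) and Pcdh15 by 0.56 ± 0.14 (0.00779). Neuron markers summed to 4214 and 4115 CPM after vehicle and 2403 and 2425 after MRX-2843 in the same tissue, and their part in these differences was not tested.

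The test of whether tumor differed from naive brain by unequal amounts in the treatments was passed by all 7 members, where 51.6% of genes passed it, 26.3% higher and 25.3% lower. It was lower for 6 members, from -3.64 ± 0.13 for Vcan (adjusted p = 4.94e-12, edgeR) to -0.55 ± 0.09 for Olig1 (0.000116). For Gpr17 it was 1.98 ± 0.13 (5.53e-09). This test uses the same 8 libraries as the comparisons above.

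The other genes of the lineage did not move as one. In vehicle tumor against vehicle naive brain, 7 of 13 further genes known from precursors were higher and 1 was lower, with a median log2 fold change of 0.61. Of all genes 60.1% were called there, 29.3% higher and 30.8% lower, so the share called in this list was near the background. These shares, and the 24.4% called between the MRX-2843 groups (12.4% higher and 11.9% lower), are also the background for the lists below. Matn4, a matrix protein, went from 14.3 and 14.0 to 161 and 163 CPM (3.52 ± 0.09, adjusted p = 3.05e-14, edgeR). C1ql1, a secreted C1q-like protein, went from 12.1 and 10.5 to 70.8 and 69.3 CPM (2.63 ± 0.11, 1.61e-11). Sox6, which holds precursors in the immature state, rose by 2.32 ± 0.14 (1.29e-09). Pcdh15, a protocadherin of precursors, fell from 20.8 and 17.1 to 4.16 and 3.65 CPM, by 2.28 ± 0.15 (2.79e-09). Gpr17 was therefore joined by 1 other precursor gene in falling.

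The myelin genes moved opposite to the 6 members. All 10 of the list were lower in vehicle tumor, with a median log2 fold change of -4.27. Mbp, myelin basic protein, went from 3672 and 3650 CPM to 125 and 126, and Mobp, another basic myelin protein, from 971 in both libraries to 14.1 and 14.2. The summed members over the summed myelin genes came to 0.0346 and 0.0356 in vehicle naive brain, against 2.69 in both vehicle tumor libraries. The ratio was 0.0391 and 0.0384 for MRX-2843 naive brain and lowest, 0.0292 and 0.0303, for MRX-2843 tumor. Among treated mice all 10 myelin genes were higher in the libraries labelled tumor than in naive brain, with a median log2 fold change of 1.02, larger than the members' 0.63.

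Genes of the committed stage, between precursor and myelin, split. Of 9, 4 were higher and 4 lower in vehicle tumor. Tcf7l2, a Wnt effector of differentiating oligodendrocytes, rose from 4.68 and 4.23 to 40.6 and 44.2 CPM (3.25 ± 0.14, adjusted p = 2.38e-11, edgeR), and Itpr2 by 1.66 ± 0.11 (3.82e-09). Bcas1, which marks early myelinating cells, fell by 1.48 ± 0.06 (2.48e-11), as did Gpr37, a receptor of maturing oligodendrocytes, by 1.48 ± 0.10 (4.86e-09). Between the MRX-2843 groups, 5 of the 9 were higher in the libraries labelled tumor and 1 was lower. Myrf, the transcription factor that turns on myelin genes, went from 53.2 and 47.9 CPM to 121 and 116 (1.23 ± 0.07, 2.67e-08).

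**Figure D3:**
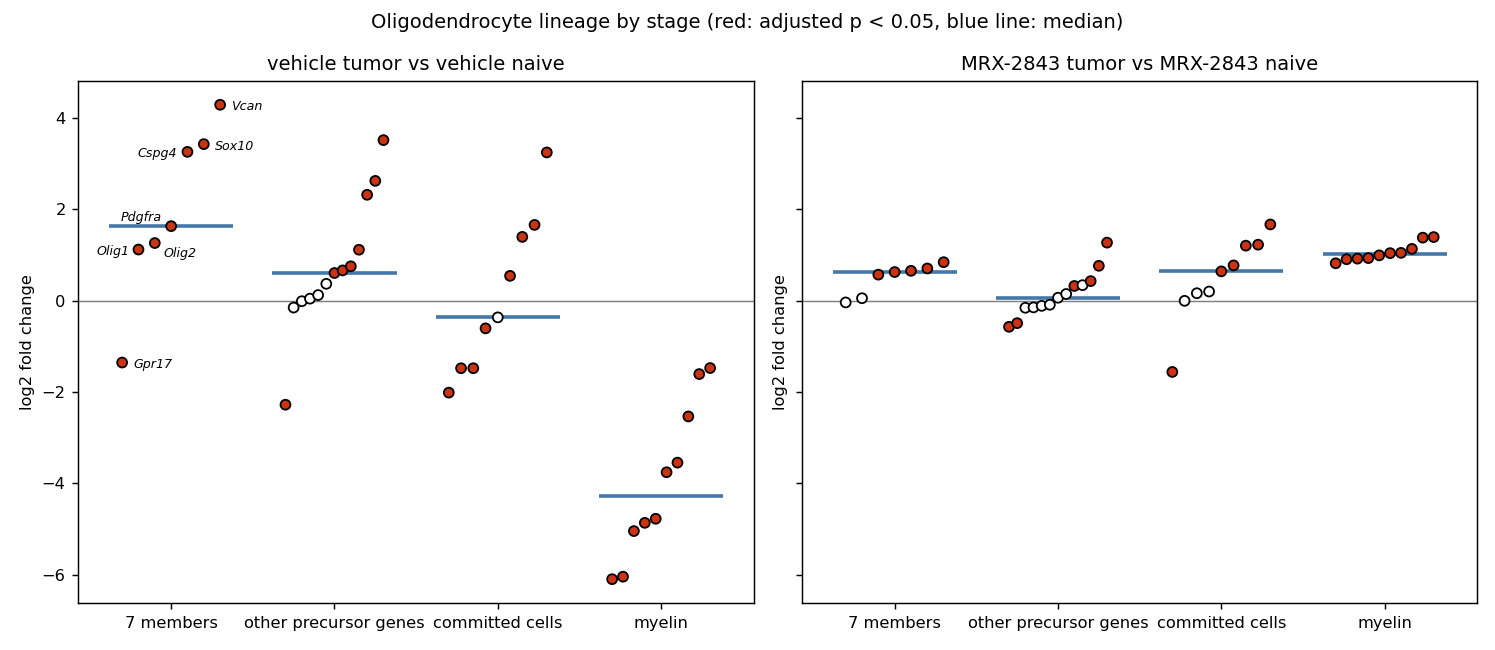
Log2 fold change of each gene in 4 lists ordered by stage (members, other precursor genes, committed oligodendrocyte genes, myelin genes), in vehicle tumor against vehicle naive brain (left) and MRX-2843 tumor against MRX-2843 naive brain (right). Points are genes, red where the adjusted p is under 0.05, and the blue line is the list's median, which goes from 1.63 for the members to -4.27 for myelin on the left and is 0.63 and 1.02 for those lists on the right.

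Partners and repressors of the OLIG and SOX factors followed in part. Of 16, 9 were higher and 3 lower in vehicle tumor, with a median log2 fold change of 0.88. The E proteins that pair with OLIG factors were among the higher, Tcf3 by 2.12 ± 0.07 (adjusted p = 7.29e-13, edgeR) and Tcf12 by 1.86 ± 0.08 (1.89e-11), and so was Sox8, the close relative of Sox10, by 1.73 ± 0.07 (7.18e-12). Id4, an inhibitor that sequesters E proteins, fell by 1.67 ± 0.08 (1.57e-10). The other repressors of the list were mixed. Hes5 fell by 2.99 ± 0.21 (5.66e-09), Hes1 rose by 1.12 ± 0.13 (1.86e-06), and Id2 was not called (-0.16 ± 0.08, 0.0926). Among treated mice 8 of the 16 were higher in the libraries labelled tumor and none was lower, with Tcf4 at 72.7 and 78.6 CPM in naive brain and 159 and 146 in tumor (1.01 ± 0.06, 3e-08).

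Most genes of the PDGF list were higher in vehicle tumor, as Pdgfra was. Of 6 genes, 5 were higher and none lower, and the median log2 fold change was 2.38. The largest was 5.72 ± 0.33 for the receptor-like Pdgfrl (adjusted p = 6.25e-10, edgeR). Pdgfc, a ligand, was not called (0.25 ± 0.25, 0.406). Pdgfb, a ligand, went from 45.4 and 40.7 to 236 and 230 CPM (2.43 ± 0.09, adjusted p = 2.16e-12, edgeR), while Pdgfa, the main ligand of Pdgfra on precursors, went from 50.6 and 54.6 to 90.4 in both libraries (0.78 ± 0.07, 2.65e-07). Pdgfrb, the sister receptor of pericytes and fibroblasts, rose by 2.44 ± 0.09 (1.9e-12), more than the 1.63 of Pdgfra, though this difference was not tested. Among treated mice, Pdgfrb was higher in the libraries labelled tumor by 0.72 ± 0.09 (2.08e-05) and Pdgfb by 0.43 ± 0.09 (0.00191), while Pdgfra was not called.

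Around Vcan and Cspg4, the genes of the hyaluronan and chondroitin sulfate matrix were mostly higher in vehicle tumor, 10 of 14 against 3 lower, with a median log2 fold change of 1.70. Acan, the aggrecan relative of versican, went from 2.99 and 2.06 to 172 and 176 CPM (6.10 ± 0.13, adjusted p = 6.51e-15, edgeR). Cd44, the hyaluronan receptor, went from 6.83 and 5.07 to 139 and 145 CPM (4.58 ± 0.13, 1.04e-13). Ncan, the brain aggrecan-family member neurocan, rose by 1.06 ± 0.05 (5.89e-11). Hapln2, the link protein of nodes of Ranvier, fell by 4.62 ± 0.11 (2.18e-14), in the direction of the myelin genes.

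Markers of the other cells that use these genes also moved with vehicle tumor. The 6 fibroblast markers were at a sum of 41.2 and 41.3 CPM in vehicle naive brain against 10136 and 10234 for vehicle tumor, with all 6 higher, and at 25.6 to 43.5 in the MRX-2843 groups. Col1a1, a collagen chain, accounted for 5512 and 5534 CPM in vehicle tumor. Pericyte markers summed to 158 and 159 CPM in vehicle naive brain against 312 and 335 for vehicle tumor, with 4 of 8 higher and 1 lower, near the 60.1% of all genes called. Pdgfrb, which fibroblasts also express, went from 23.8 and 25.0 to 127 and 138 CPM and made up most of the rise, and Kcnj8, Abcc9 and Des were not called. Rgs5, the most abundant of them, was at 95.1 and 91.3 CPM and then 111 and 121. The part of fibroblasts and pericytes in the levels of Pdgfra, Cspg4 and Vcan was not tested.

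Schwann cell and neural crest markers summed to 14.3 and 14.2 CPM (vehicle naive brain), 394 and 402 (vehicle tumor) and 25.7 to 27.8 (both MRX-2843 groups), and 4 of the 5 tested were higher in vehicle tumor. Ngfr, the p75 neurotrophin receptor, made up most of this at 310 CPM in both vehicle tumor libraries, and Foxd3, a neural crest factor, had 5.78 and 5.60 CPM there and 0 counts elsewhere. Pmp2, a myelin protein of Schwann cells, had 0 counts in all 8 libraries. Melanocyte markers summed to 18.5 and 19.9 CPM in vehicle tumor against 7.005 and 8.98 in vehicle naive brain. Of the 6, 2 were called higher, none lower and 4 were not called. The higher were Mitf, at 10.05 and 10.37 CPM in vehicle tumor, and Dct, at 6.94 and 7.78, which made up most of the sum. Of those not called, Tyr went from 8 counts in both vehicle naive libraries to 0 in both vehicle tumor libraries. Tyrp1 went from 38 and 22 counts to 0 and 6, while Pmel and Mlana had positive log2 fold changes. The part of the neural crest and melanocyte markers in the level of Sox10 was not tested.

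Radial glia markers rose with the members, from sums of 135 and 126 CPM without tumor to 1794 and 1836 with it (6 of 6 higher). Vim made up most of the latter sums, going from 41.6 and 42.2 to 1529 and 1566 CPM. The list's median log2 fold change was 1.67, against 5.21 for Vim and 0.59 for both Fabp7 and Prom1. Markers of dividing cells were at 36.0 and 36.4 and then 304 and 305 CPM (5 of 5 higher). Microglia markers were at 217 and then 1652 and 1689 CPM, and monocyte and macrophage markers at 17.6 and 19.0 and then 265 and 269, which is relevant to Vcan. Endothelial markers were at 122 and 125 and then 442 and 432 CPM. Neuron markers were lower, at 359 and 354 CPM (5 of 5 lower), and of 6 astrocyte markers 4 were lower and 1 was higher, with sums of 2112 and 2110 and then 893 and 907. Most of that fall was Slc1a2, a glutamate transporter, from 1474 and 1463 to 246 and 258 CPM, while Aqp4, the water channel of astrocyte endfeet, was higher by 1.09 ± 0.08 (adjusted p = 2.23e-08, edgeR). Ependymal cell markers, the genes of the ciliated lining from which the tumor type takes its name, were low, at 5.01 and 5.78 CPM in vehicle naive brain against 29.8 and 30.2 for vehicle tumor, with 2 of 6 higher and 2 lower. Rarres2 made up nearly all of that difference, at 1.65 and 2.58 CPM and then 26.6 and 27.1, and Foxj1, the factor that directs motile cilia, was at 2.24 and 2.49 and then 2.65 and 2.90 CPM (adjusted p = 0.453, edgeR). In the libraries labelled MRX-2843 tumor, dividing-cell markers were at 57.1 and 49.3 CPM against 28.2 and 28.5 in MRX-2843 naive brain (5 of 5 higher). Pcna made up most of these sums, at 34.1 and 32.5 CPM against 26.6 and 26.7, a log2 fold change of 0.32. The log2 fold changes of Mki67, Ccnb1, Cdk1 and Top2a were larger, at 2.55, 3.19, 3.87 and 5.72. Top2a was at 9.51 and 6.95 CPM against 0.164 and 0.150. Fibroblast markers in the libraries labelled MRX-2843 tumor were the lowest of all groups. Between the same groups microglia markers went from 222 and 221 to 292 and 290 CPM (5 of 5 higher), and astrocyte markers from 1738 and 1780 to 2580 and 2467 (3 of 6 higher and 1 lower). The part of these cell types in the members' levels was not tested.

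**Figure D4:**
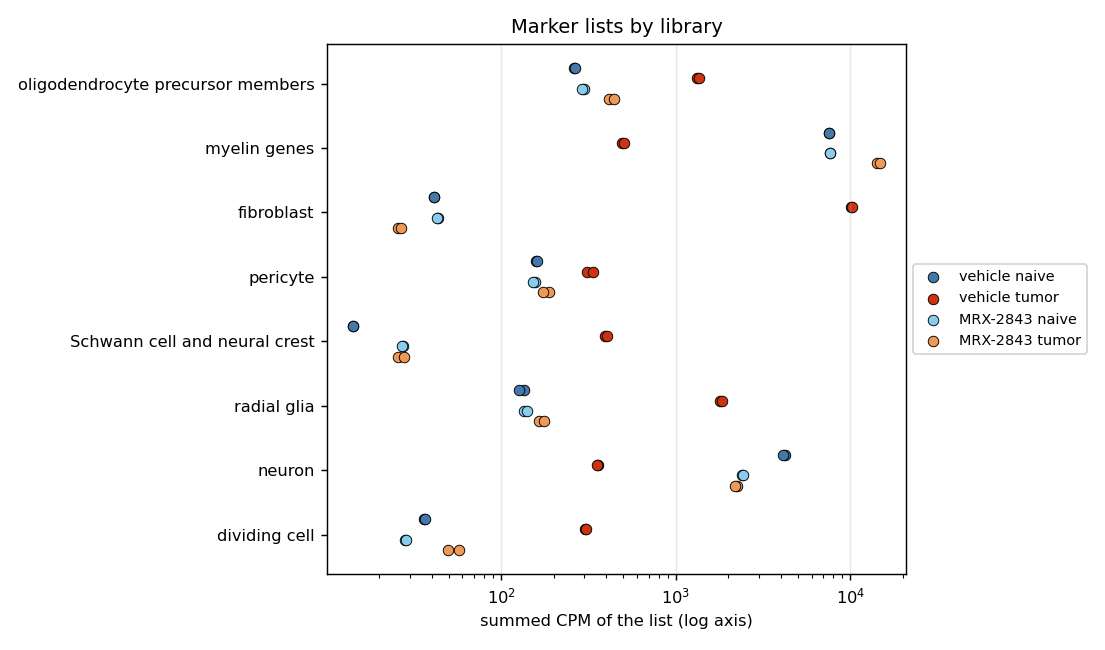
Summed CPM of each marker list in each library, on a log axis, with one colour per group and 1 point per library. Vehicle tumor is at 10136 and 10234 CPM for fibroblast markers and below the other groups for neuron and myelin genes, while the libraries labelled MRX-2843 tumor are close to naive brain for most lists.

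Between members, the profiles over the 8 libraries were alike to different degrees. Sox10 and Vcan correlated at r = 0.994 on log2(CPM + 0.5), Cspg4 and Pdgfra at 0.988, and Olig1 and Olig2 at 0.983, while Gpr17 correlated with the others at -0.529 to -0.909. These are descriptions over 8 libraries that fall into groups of 2 and share their processing. The genes nearest in profile, picked for the highest r among 12462 genes, were Mcam and Ddr1 for Sox10 (r of 0.9998 and 0.9988), Ifi204 and Sdc4 for Cspg4 (both 0.9996), and Svil and Mcm3 for Vcan (both 0.999). For Olig2 they were Igfbpl1 and Pclaf (0.997 and 0.991), for Olig1 Fam102a and Ccdc134 (0.994 and 0.990), for Pdgfra Capn15 and Wapl (0.999 and 0.998), and for Gpr17 Rgs11 and Fnbp1 (0.999 and 0.997). A high r does not mean like levels: Ifi204 was at 77.1 and 81.7 CPM in vehicle tumor and at 0.0596 to 0.492 elsewhere.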

How the data were processed

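RNA labelled as naive brain or brain tumor was sequenced in 8 libraries. The authors deposited raw read counts per gene, whole numbers that are not normalized. Per the submitters' processing notes, STAR 2.7.7a, SAMtools, featureCounts and Subread were used with the builds hg38 and mm10; the role of each, the annotation and the strand setting are not given in the sources used here. The 7 members, the gene lists, the tests and the rule for named genes were chosen with earlier results of these data known.

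The deposited counts were modelled in edgeR 4.0.16 (R 4.3.3), scaled by TMM after filterByExpr had removed low genes (minimum count 10, by group). The quasi-likelihood model held 4 group means and left 4 residual degrees of freedom; the common coefficient of biological variation was 21.0%. p-values were adjusted by Benjamini-Hochberg over 24356 genes, with a threshold of 0.05. Standard errors were derived from the fold change and its F statistic. CPM uses TMM-scaled totals, and a count of 0 allows up to 3 counts (0.0281 to 0.0615 CPM). Exon lengths and coordinates are from GENCODE M21 on GRCm38, which matched 94.0% of the gene identifiers without their version.

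From each list, up to 4 genes with the smallest adjusted p in vehicle tumor against vehicle naive brain and up to 2 in MRX-2843 tumor against MRX-2843 naive brain were eligible to be named, with the most abundant markers of each cell type. Others were named after their values were seen. These were Foxd3, Pmp2, Foxj1, Aqp4, Kcnj8, Abcc9, Des, Tyr and Tyrp1 as defining markers, and Lims2 for its overlap. Fabp7, Prom1, Mki67, Ccnb1, Cdk1, Top2a, Pdgfc, Mitf, Dct, Hes1, Hes5 and Id2 were named to show the spread within their lists. Neighbours are the 2 nearest protein-coding genes on each side. Those of Gpr17, and those of Vcan other than Hapln1, are not described. The libraries of a group differed beyond sampling noise and were counted separately. Alternatives were other scalings, DESeq2 1.42.0, other filters, the fit with only the groups compared, a replicate block, a minimum fold change and each library left out; leaving out both MRX-2843 tumor libraries or the mitochondrial genes was added after seeing the data. The fit was tested on simulated counts with less variation and far fewer changed genes than these data. That test therefore cannot show how the fit performs under the conditions of these data.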

Additional observations from a re-analysis of the deposited data

Results flagged for a closer look

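All 7 members passed the test of the difference between treatments in how tumor compared with naive brain (edgeR's quasi-likelihood test, adjusted p under 0.05), where 51.6% of all genes did. The difference, on the log2 scale as MRX-2843 minus vehicle, was -3.64 for Vcan, -3.30 for Cspg4, -2.59 for Sox10, -1.58 for Pdgfra, -0.56 for Olig2, -0.55 for Olig1 and 1.98 for Gpr17. For Pdgfra and Cspg4 the tumor libraries of the treated mice overlapped their naive brain, while for Gpr17 the sign of the difference from naive brain turned. The same 8 libraries enter all 7 values, and sex-linked genes and the column number follow treatment, so none of these can be told apart from the drug. The values also rest on the 2 libraries labelled MRX-2843 tumor, whose content of tumor tissue was not tested and which correlated with vehicle naive brain at 0.975 to 0.976 and with vehicle tumor at 0.666 to 0.671.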

How the results depend on the processing

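The 6 higher and 1 lower members of vehicle tumor against vehicle naive brain, and the 6 lower and 1 higher of MRX-2843 tumor against vehicle tumor, kept direction and call under every scaling, filter and test and without each library, except where a minimum fold was asked. Scaling by library totals moved the median of all genes by 0.24 in the former comparison and by -0.21 in the latter. With a log2 fold change of at least 1 asked, no member stayed called between the MRX-2843 groups (0 against 5) or in naive brain (0 against 2), Olig1 and Olig2 lost their calls between the tumor groups and in the test of the difference, and the genes called went from 14715 to 9706, from 5935 to 1363 and from 5225 to 1389 for MRX-2843 tumor against vehicle tumor, the MRX-2843 groups and naive brain. Without single libraries, the members called higher in naive brain ranged from 0 to 3. Differences near 0 changed sign there: in naive brain Gpr17 ranged from -0.037 to 0.10 and Olig2 from -0.10 to 0.20, and between the MRX-2843 groups Cspg4 from -0.076 to 0.0099 and Pdgfra from -0.023 to 0.13. Vcan in naive brain passed in 8 of 13 alternatives (adjusted p 0.00326 to 0.400). Libraries with the same duplicate number did not deviate together between groups (correlations -0.0169 to 0.0155). Where duplicates are technical this correlation is near 0 with or without pairing, so it cannot decide whether samples are paired. The number in the column names was not tested. With the replicate block 14120 genes were called in vehicle tumor against vehicle naive brain, and the members' counts were the same except for Vcan in naive brain (0.27, adjusted p = 0.0475). The members had at least 896 counts in every library, so counting error limited none of these values.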
